A study of Mus musculus with 36 samples.

Results

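The 38 genes described here carry glucose into the heart muscle cell, run it through glycolysis to pyruvate and lactate, and store and release it as glycogen. The members were chosen by function, as a list of gene symbols for glucose uptake, glycolysis, lactate handling and glycogen metabolism, a rule that uses no measured value. Earlier results of these data were, however, known when the list was made. All 38 symbols were found among the 55291 symbols of the count and TPM tables, and all 38 passed the filter on low counts. They fall into 8 groups by role. These are the insulin receptor and glucose transporters (4 genes), the hexokinases, phosphoglucose isomerase and phosphofructokinases (6 genes), the fructose-2,6-bisphosphate enzymes (4 genes), the aldolases and triosephosphate isomerase (3 genes), lower glycolysis (7 genes), lactate dehydrogenases and lactate transporters (4 genes), glycogen synthesis (4 genes) and glycogen breakdown (6 genes).

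Glucose enters cardiomyocytes mainly through the insulin-regulated transporter GLUT4 and the basal transporter GLUT1, and is trapped inside the cell by hexokinase. Phosphofructokinase sets the pace of glycolysis and is activated by fructose-2,6-bisphosphate, which the bifunctional PFKFB enzymes make and break down. The adult heart burns mostly fatty acids and lactate, keeps a glycogen store as a reserve, and relies more on glucose when it is stressed.

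RNA-Seq was performed on the left ventricle and on the atria of 21-week-old CUG960 mice, a cardiac model of myotonic dystrophy type 1 with the genotype TREDT960I (Hom)/MHCrtTA (Hem). In these mice the Myh6 (MHC) promoter drives the doxycycline-dependent activator rtTA in cardiomyocytes, so that dox chow switches on an RNA with expanded CUG repeats, which sequesters the splicing factors MBNL1 and MBNL2. All 12 groups (6 cohorts in 2 chambers, 3 libraries each, 36 in all) carried both transgenes. The +dox cohort was on dox from postnatal day 1 to 21 weeks, the +/–dox cohort was taken off dox at 9 weeks and kept on normal chow for 12 weeks, and the –dox cohort never received dox. The other 3 cohorts, named MBNL1, MBNL2 and MBNL1+MBNL2, were kept on dox and at 9 weeks were given AAV9 that expressed human MBNL1, human MBNL2 or both from the cardiac human TNNT2 promoter. Dox and the repeat RNA were withdrawn together, so their effects cannot be told apart, and no vector is named for the sequenced +dox mice. No cohort with a control vector was among the 6. The effects of MBNL and of the AAV9 vector therefore cannot be told apart either. The levels of the repeat RNA and of the human MBNL transcripts were not analysed here. Libraries are called biological replicates in the labels. By the study's sample list the ventricles and the atria of a cohort came from the same mice, although the labels do not link a replicate number to a mouse, and the mice were of both sexes in every cohort but MBNL1+MBNL2, which was male.

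The libraries held 55031987 to 97091184 expected counts each. Ventricular MBNL1 replicate 1 stood apart, with 16885 genes above 0 against 20578 to 24041 in the other 35 libraries. The chambers were as labelled by their markers: 5 ventricular markers, Myl2 among them, summed to 23157 to 31273 TPM in the ventricular and to at most 2389 TPM in the atrial libraries. The 6 atrial markers, Nppa and Sln among them, summed to at least 40301 TPM in the atria and to at most 1011 TPM in the ventricles. Markers also moved with dox. The atrial markers summed to 40301 to 43366 TPM in the +dox atria, 55844 to 60746 TPM in +/–dox and 54391 to 57789 TPM in –dox, with none of the 6 past the test in –dox, and the ventricular markers in the atria to 825 to 930 TPM in +dox and 1262 to 2389 TPM in –dox, with 1 of 5 higher. Endothelial markers summed to 158 to 170 TPM in the +dox and to 196 to 251 TPM in the –dox ventricles, and 4 of 5 were higher in –dox in each chamber. Of the 6 cardiomyocyte markers, 3 were higher in –dox in each chamber, and fibroblast markers were higher for 1 of 5 genes in the ventricle and 3 of 5 in the atria. Red blood cell markers summed to 393 to 1243 TPM in the +dox, 2354 to 2933 TPM in the +/–dox and 1842 to 4147 TPM in the –dox ventricles, with none of the 5 past the test. The 5 fat markers, which matter here because fat cells also use GLUT4, summed to at most 41.4 TPM in a library. By their library names, replicates 1 and 2 of 5 cohorts form a first library set and replicate 3 of these cohorts with all MBNL1+MBNL2 libraries a second. Xist, which is expressed from the inactive X chromosome of females, was at 13.6 to 41.2 TPM in replicate 3 of these 5 cohorts (10 libraries of both chambers) and at 0.15 TPM or less in the other 26, and the Y-linked Ddx3y was at 0.21 TPM or less and at 24.5 to 34.8 TPM. In these cohorts the library set and the sex of the mouse therefore cannot be told apart. All MBNL1+MBNL2 libraries were of the second set and had the male pattern, so their set and sex make-up differed from that of +dox. The part of other cell types in the results that follow was not tested, and in tissue RNA fewer cells of a type cannot be told apart from less RNA per cell.

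TPM is a transcript abundance scaled for transcript length and for depth, and is the scale of every level given. The most abundant members were Aldoa, an aldolase, with a median of 2045 TPM over the 18 ventricular libraries, Gapdh, the glyceraldehyde-3-phosphate dehydrogenase, with 1794 TPM, Eno3, the muscle enolase, with 1217 TPM, and Ldhb, the heart lactate dehydrogenase, with 1119 TPM. Aldoa (1891 TPM) and Gapdh (1877 TPM) also led in the atria, where Pgam2, the muscle phosphoglycerate mutase, came next with 1107 TPM. At the low end stood Aldoc, the brain aldolase, with a median of 0.17 TPM in the ventricle, and the neuronal glucose transporter Slc2a3 with 0.68 TPM. The 38 members together made up between 0.989% and 1.28% of all TPM in a library.

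The first question was how these genes differed when the repeat RNA was absent. Differences are log2 fold changes ± SE of normalised counts, with 3 libraries a group, and p-values are those of the quasi-likelihood test of edgeR, adjusted over 19231 genes by the Benjamini-Hochberg method. A gene is said to pass the test at an adjusted p below 0.05, and to be called when the fold change is also at least 1.5. In the ventricle, 15 of 38 members passed the test between –dox and +dox, where 20.9% of all genes tested passed. Of these, 12 were higher and 3 lower in –dox (9.64% and 11.3% of all genes). A call was made for 6 members, 4 higher and 2 lower, where 7.6% of all genes were called (3.47% higher, 4.13% lower), and by library size alone 2 higher and 2 lower were called. The median log2 fold change of the members was 0.15 against 0.01 for all genes. Between +/–dox and +dox, 17 ventricular members passed, where 21.8% of all genes did, 14 of them higher and 3 lower (10.6% and 11.1% of all genes). Here 6 members were called, 5 higher and 1 lower, where 6.6% of all genes were called (3.09% higher, 3.52% lower), and with median-of-ratios scaling 5 higher and no lower ones were called. Both comparisons use the same +dox libraries. Within the first library set alone 4 and 5 members were called, and when only the 18 ventricular libraries were fitted Gpi1, Pfkfb3, Pfkfb4, Aldoc and Eno1 no longer passed in –dox (adjusted p of 0.055 or more).

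Fewer of the same genes passed the test in the atria. Whether an effect differed between the chambers is a separate test, given below. Of the 38 members, 5 passed the test between –dox and +dox, where 15.9% of all genes passed, with 3 higher and 2 lower (7.3% and 8.62% of all genes); 8 passed by library size, 4 in each direction. Between +/–dox and +dox 7 passed, where 12.6% of all genes passed, with 4 higher and 3 lower (5.4% and 7.21% of all genes), and on log2(TPM + 1) with limma 3 were higher and 4 lower. None was called in the atria in either comparison, where 5.23% and 3.99% of all genes were called, and DESeq2 also called none. At an unadjusted p below 0.05 there were 11 and 9 members. For counts at an unadjusted p, here and below, no share of all genes is given, so they are not read as a result. The members' medians, 0.01 and 0.05, lay close to those of all genes, 0.03 and 0.03.

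**Figure D1:**
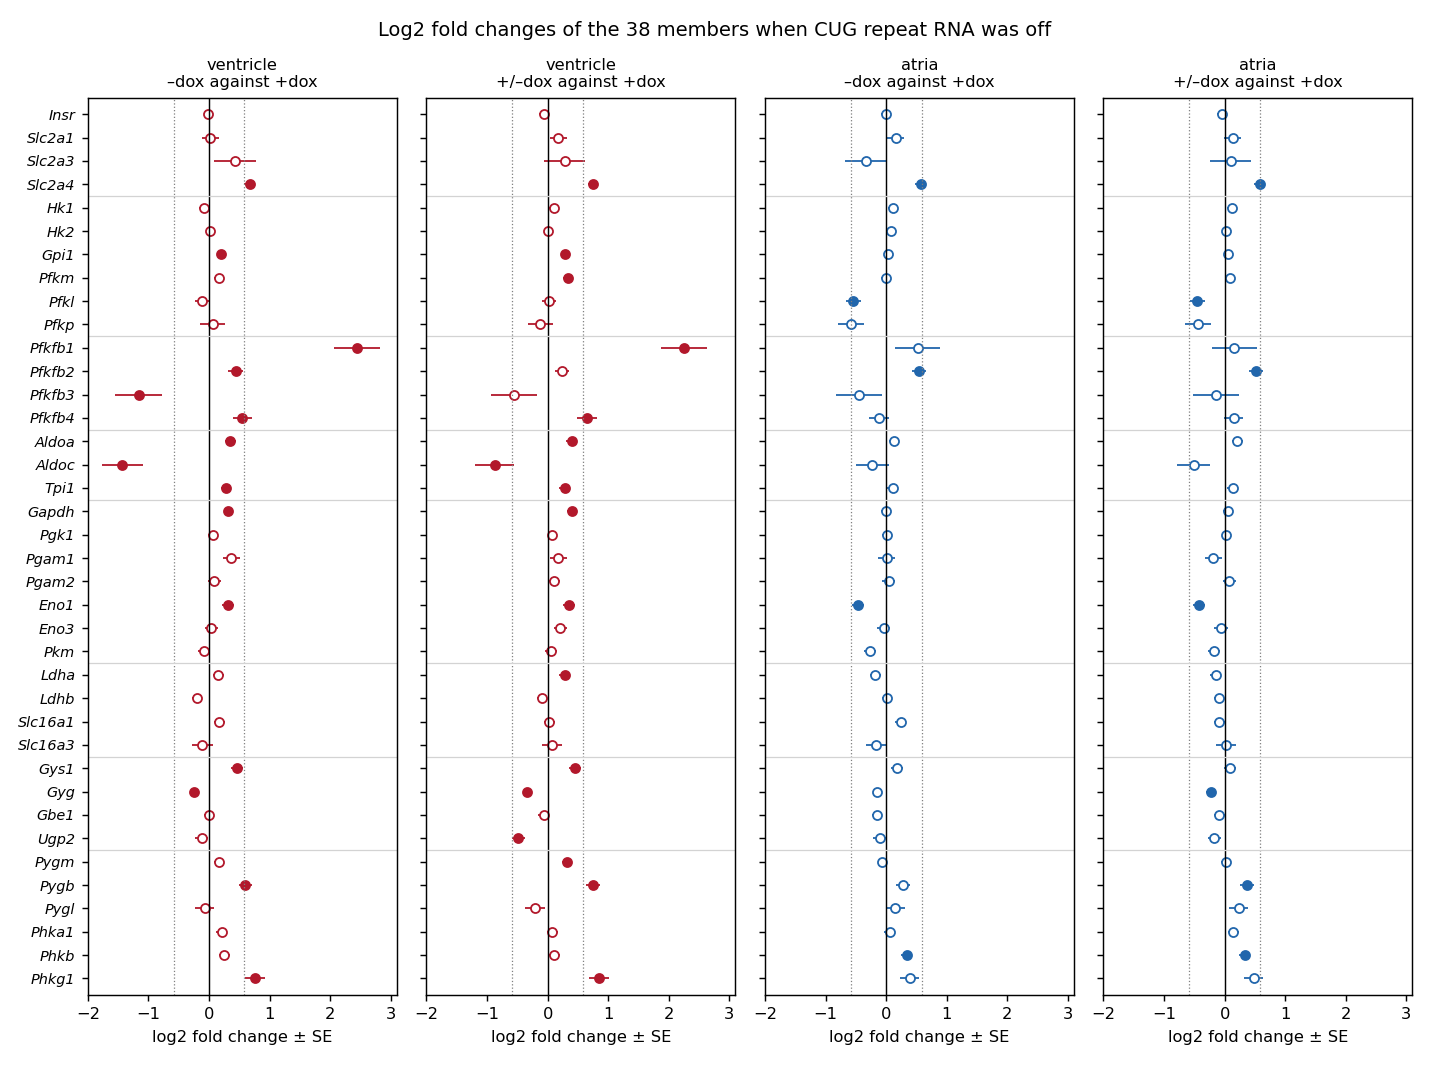
Log2 fold change ± SE of each of the 38 members (rows, in order of role) for –dox and +/–dox against +dox, in the ventricle (red) and the atria (blue), 3 libraries a group. Filled points have an adjusted p below 0.05 and dotted lines mark a 1.5-fold change. Slc2a4 lies to the right in all 4 panels (0.67, 0.75, 0.57 and 0.58), and Eno1 lies to the right in the ventricle (0.32 and 0.35) and to the left in the atria (-0.46 and -0.43).

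Slc2a4 encodes GLUT4, the insulin-regulated glucose transporter (GRCm38, chromosome 11, 69942539 to 69948188, minus strand). It made up 95.7% of the summed TPM of the 3 glucose transporters in the +dox ventricles. Its ventricular levels were 141, 142 and 151 TPM in +dox, 225, 237 and 254 TPM in +/–dox, and 225, 209 and 232 TPM in –dox. Every library without the repeat RNA lay above every +dox library. The difference from +dox was 0.67 ± 0.09 for –dox (adjusted p = 1.08e-06) and 0.75 for +/–dox (adjusted p = 1.9e-07), and within the first library set it was 0.67 and 0.74. Scaled by library size alone, the –dox difference was 0.58 and no longer 1.5-fold. In the atria the levels were 146, 151 and 162 TPM in +dox, 207, 225 and 223 TPM in +/–dox, and 207, 215 and 241 TPM in –dox, again without overlap with +dox. These atrial differences, 0.57 ± 0.09 (adjusted p = 1.73e-05) and 0.58 (adjusted p = 1.9e-05), fell just short of 1.5-fold.

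With MBNL delivered, ventricular Slc2a4 stood between the +dox and the +/–dox levels. The values were 186, 182 and 195 TPM under MBNL1, 162, 175 and 203 TPM under MBNL2, and 214, 204 and 155 TPM under both, all above the +dox and all below the +/–dox libraries. The difference from +dox was 0.35 for MBNL1 (adjusted p = 0.00884) and 0.35 for MBNL1+MBNL2 (adjusted p = 0.00834), the latter falling to 0.23 (adjusted p = 0.145) without MBNL1+MBNL2 replicate 1. Under MBNL2 the difference from +dox did not pass. All 3 MBNL cohorts were lower than +/–dox, by log2 values of -0.39 for MBNL1 (adjusted p = 0.0106), -0.56 for MBNL2 (adjusted p = 9.47e-05) and -0.40 for MBNL1+MBNL2 (adjusted p = 0.0107). The first of these did not pass without +/–dox replicate 2 and the last did not pass without that library or without MBNL1+MBNL2 replicate 3, with adjusted p up to 0.0592 and 0.138. Atrial Slc2a4 did not pass against +dox in any MBNL cohort and was lower than in +/–dox in all 3, by -0.35 (adjusted p = 0.0143), -0.56 (adjusted p = 3.96e-05) and -0.49 (adjusted p = 0.000425).

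**Figure D2:**
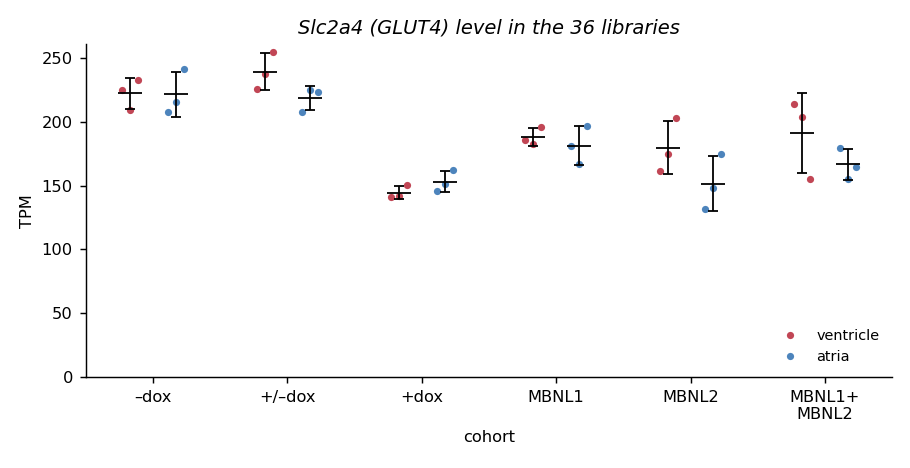
Levels of Slc2a4 (GLUT4) in TPM in the 6 cohorts, in ventricle (red) and atria (blue). Each point is 1 library, and the black dash and bars give the mean ± SD of 3 libraries. The +dox libraries lie at 141 to 162 TPM and the –dox and +/–dox libraries at 207 to 254 TPM in both chambers.

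The insulin receptor and the other glucose transporters did not pass in any comparison with +dox. Insr, the receptor whose signal brings GLUT4 to the membrane, ranged from 31.4 to 39.9 TPM over the ventricular and from 38.2 to 50.8 TPM over the atrial libraries. Slc2a1, which encodes GLUT1, ranged from 4.89 to 7.94 TPM and from 8.05 to 13.8 TPM. Slc2a3 (GLUT3) stayed at or below 1.78 TPM.

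Among the enzymes that prime glucose, differences were small in the ventricle. Gpi1, phosphoglucose isomerase, and Pfkm, the muscle phosphofructokinase, were slightly higher without the repeat RNA. Pfkm was at 452, 449 and 427 TPM in the +dox, 547, 553 and 583 TPM in the +/–dox and 492, 466 and 509 TPM in the –dox ventricles. Its difference from +dox passed for +/–dox (0.34, adjusted p = 0.00251). Gpi1 passed in both comparisons, at 0.20 ± 0.07 for –dox (adjusted p = 0.0288) and 0.29 for +/–dox (adjusted p = 0.00222), but the –dox result failed in 5 of 7 fits that each left out 1 library, those compared and ventricular MBNL1 replicate 1 (every +dox library, –dox replicates 1 and 3), with adjusted p up to 0.115. The hexokinases Hk1 and Hk2, which catalyse the first step, ranged from 58.7 to 86.4 TPM and from 67.1 to 91.8 TPM in the ventricle and passed in neither comparison.

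Pfkl, the liver-type phosphofructokinase (chromosome 10, 77986947 to 78010083, minus strand), differed in the atria. Its atrial levels were 79.3, 77.3 and 66.6 TPM in +dox, 52.6, 55.3 and 49.8 TPM in +/–dox, and 52.6, 49.8 and 48.2 TPM in –dox. All 6 libraries without the repeat RNA were below all 3 +dox libraries, and the differences were -0.54 ± 0.12 (adjusted p = 0.00141) for –dox and -0.45 (adjusted p = 0.00931) for +/–dox. The latter did not pass without atrial +dox replicate 1 or +/–dox replicate 3, with adjusted p up to 0.0914. Atrial Pfkl in the MBNL cohorts overlapped with +dox, at 68.6, 69.7 and 73.0 TPM under MBNL1, 74.3, 74.0 and 77.0 TPM under MBNL2 and 64.3, 81.4 and 84.1 TPM under MBNL1+MBNL2, and was higher than in +/–dox by 0.48 under MBNL2 (adjusted p = 0.0059) and 0.43 under MBNL1+MBNL2 (adjusted p = 0.0213). Leaving out MBNL1+MBNL2 replicate 2 or 3, or +/–dox replicate 1 or 3, ended the second of these results (adjusted p up to 0.126). In the ventricle, where Pfkl was at 54.2, 54.5 and 43.2 TPM in +dox and at 49.1, 43.4 and 46.0 TPM in –dox, the groups overlapped. The platelet-type enzyme Pfkp ranged from 23.2 to 50.03 TPM in the ventricle, spread widely within cohorts, and did not pass against +dox.

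Among the members, Pfkfb1 had the largest fold change against +dox. Pfkfb1, the isoform known from liver and skeletal muscle (chromosome X, 150588229 to 150643878, plus strand), was at 1.02, 1.44 and 1.68 TPM in the +dox ventricles, at 8.65, 6.97 and 3.44 TPM in +/–dox and at 12.3, 4.72 and 4.14 TPM in –dox. The 6 libraries without the repeat RNA did not overlap with +dox, although they differed among themselves by more than the +dox libraries did. The fitted fold was 5.46 for –dox (log2 2.45 ± 0.38, adjusted p = 2.36e-05) and 4.75 for +/–dox (log2 2.25 ± 0.38, adjusted p = 7.86e-05). The counts behind these values were 122, 184 and 141 reads in +dox and 1068, 469 and 296 reads in –dox. The Pfkfb1 gene model overlaps with Apex2 on the opposite strand, and a part of Apex2 reads in these counts was not tested. Leaving out 1 library at a time kept the –dox result called, with log2 values from 1.74 to 2.74, and the first library set alone gave 2.86.

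In the atria Pfkfb1 was at 1.63, 2.07 and 1.68 TPM in +dox and at 2.79, 2.20 and 2.57 TPM in –dox. The groups did not overlap, but the difference did not pass. The ventricular effect exceeded the atrial effect by a log2 value of 1.93 ± 0.52, which did not pass over all genes (adjusted p = 0.0674). With the ventricle and the atria of 1 cohort and number taken as the same mouse, the value was 1.76 ± 0.43 and was called (adjusted p = 0.0334). Ventricular Pfkfb1 in the MBNL cohorts was at 2.28, 2.29 and 1.72 TPM under MBNL1, 1.23, 2.13 and 2.86 TPM under MBNL2, and 3.15, 2.92 and 1.25 TPM under MBNL1+MBNL2. None of these differed from +dox by the test, and all 9 libraries lay below the lowest +/–dox library. Against +/–dox the differences were -1.67 (adjusted p = 0.013), -1.80 (adjusted p = 0.0035) and -1.49 (adjusted p = 0.0281). The MBNL1 result failed when +/–dox replicate 1 or 2 or MBNL1 replicate 3 was left out (adjusted p up to 0.0825), and the MBNL1+MBNL2 result when +/–dox replicate 1 or 2 or MBNL1+MBNL2 replicate 2 or 3 was (adjusted p up to 0.21).

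Pfkfb2, the heart isoform, which insulin signalling activates, was the most abundant of the 4. Ventricular levels were 23.4, 28.3 and 38.1 TPM in +dox and 34.2, 37.96 and 44.5 TPM in –dox, with overlap, and the difference was 0.44 ± 0.12 (adjusted p = 0.00909). It did not pass without +dox replicate 1 or without –dox replicate 3 (adjusted p up to 0.102). In the atria the levels were 17.1, 21.0 and 21.6 TPM in +dox, 24.5, 26.0 and 27.5 TPM in +/–dox, and 23.4, 30.0 and 29.5 TPM in –dox. Here every library without the repeat RNA was above +dox, by 0.54 ± 0.12 for –dox (adjusted p = 0.00252) and 0.52 for +/–dox (adjusted p = 0.00446). Atrial MBNL1+MBNL2 was lower than +/–dox by -0.44 (adjusted p = 0.0235), a result lost without MBNL1+MBNL2 replicate 2 or +/–dox replicate 2 or 3 (adjusted p up to 0.187).

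Pfkfb3, the isoform with the highest kinase activity, was called lower in the –dox ventricles (-1.16 ± 0.39, adjusted p = 0.0349), but 1 library decided this value. The +dox levels were 3.99, 2.79 and 12.3 TPM and the –dox levels were 2.73, 2.58 and 2.60 TPM. Without +dox replicate 3 the log2 difference was -0.24 (adjusted p = 0.655), within the first library set it was -0.18 (adjusted p = 0.598), and it also failed without each –dox library. The same replicate number was the highest of the atrial +dox libraries, which were at 5.33, 3.40 and 11.1 TPM. Pfkfb4, known from testis and induced by low oxygen, was at 0.81, 0.74 and 0.89 TPM in the +dox, 1.25, 1.34 and 1.33 TPM in the +/–dox and 1.19, 0.99 and 1.36 TPM in the –dox ventricles, without overlap. It differed from +dox by 0.65 in +/–dox (adjusted p = 0.00329) and by 0.55 ± 0.16 in –dox (adjusted p = 0.012), and the –dox result did not pass without –dox replicate 3 (adjusted p = 0.0636). The MBNL1 cohort, at 1.19, 1.43 and 1.36 TPM, was also called higher than +dox (0.65, adjusted p = 0.00925).

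**Figure D3:**
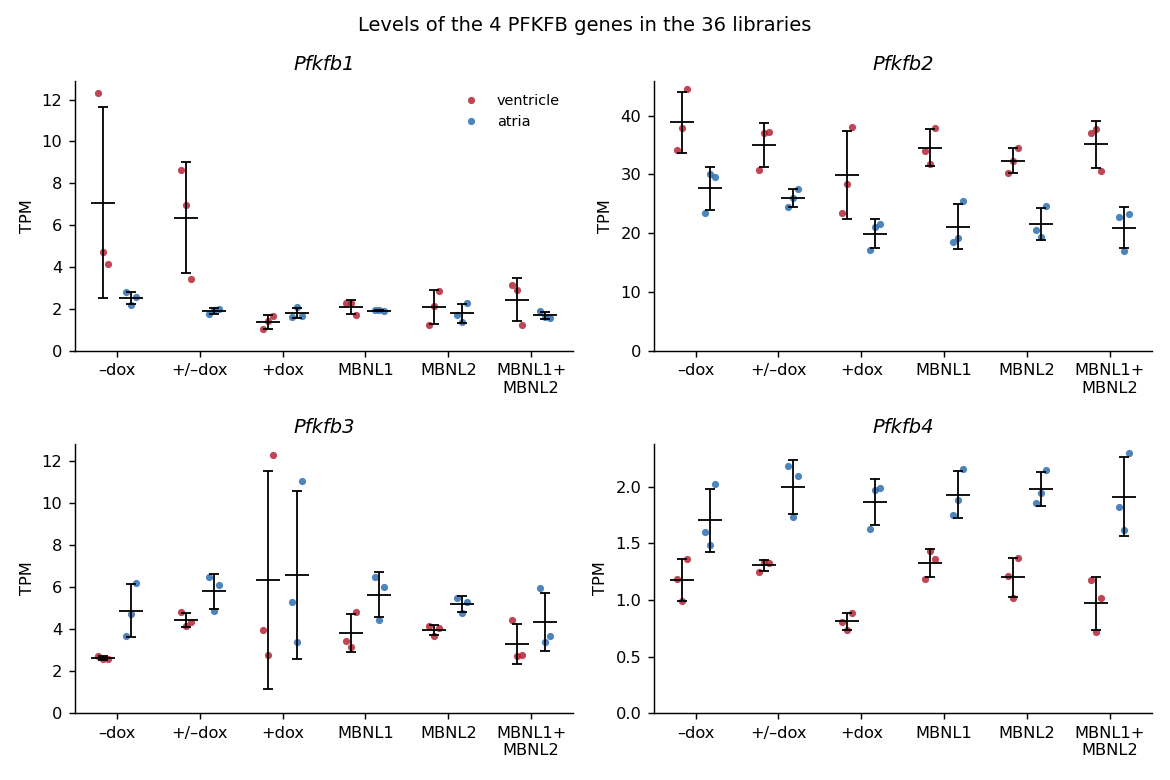
Levels of Pfkfb1, Pfkfb2, Pfkfb3 and Pfkfb4 in TPM in the 6 cohorts of ventricle (red) and atria (blue). Points are libraries, and the black dash and bars give the mean ± SD of 3. Ventricular Pfkfb1 is at 3.44 to 12.3 TPM in –dox and +/–dox and at 1.02 to 3.15 TPM in the other cohorts, and the 2 highest Pfkfb3 points, 12.3 and 11.1 TPM, are replicate 3 of +dox in each chamber.

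The aldolases, which split fructose-1,6-bisphosphate, moved in opposite directions in the ventricle. Aldoa, the muscle isoform (chromosome 7, 126795234 to 126800751, minus strand; its symbol also covers a second, adjoining gene model), was at 1643, 1557 and 1644 TPM in +dox, 2126, 2072 and 2138 TPM in +/–dox, and 2057, 1823 and 2107 TPM in –dox. All libraries without the repeat RNA were above +dox, by 0.35 ± 0.09 for –dox (adjusted p = 0.00371) and 0.40 for +/–dox (adjusted p = 0.000928). Aldoc was near the floor of detection, at 46, 25 and 19 reads in +dox, 13, 11 and 12 reads in +/–dox and 9, 7 and 8 reads in –dox. It was called lower in –dox (-1.43 ± 0.34, adjusted p = 0.00239) and in +/–dox (-0.87 ± 0.32, adjusted p = 0.0481). The –dox call was lost on log2(TPM + 1) with limma (-0.19, adjusted p = 0.218). The +/–dox call was lost without +dox replicate 1 or without any 1 of the +/–dox libraries, with adjusted p up to 0.349.

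Tpi1, triosephosphate isomerase, was at 502, 483 and 457 TPM in the +dox and at 587, 563 and 548 TPM in the –dox ventricles, a difference of 0.28 ± 0.09 (adjusted p = 0.0225). Its +/–dox levels of 599, 560 and 586 TPM were likewise above +dox (0.28, adjusted p = 0.0186). Both results failed without +dox replicate 3, the first also without –dox replicate 1 or 2 and the second also without +/–dox replicate 1 (adjusted p up to 0.141 and 0.128). None of these 3 genes passed against +dox in the atria, where Aldoa was at 1778, 1894 and 1661 TPM in +dox, 1889, 2068 and 1969 TPM in +/–dox and 1959, 1877 and 1884 TPM in –dox.

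In lower glycolysis, Gapdh and Eno1 passed the test in the ventricle and the other 5 genes did not. Gapdh, which is often used as a reference gene, was at 1397, 1249 and 1552 TPM in +dox, 1783, 1774 and 2041 TPM in +/–dox, and 1824, 1489.8 and 1888 TPM in –dox. The +/–dox libraries were all above +dox, and –dox replicate 2 overlapped with it. The difference was 0.32 ± 0.08 for –dox (adjusted p = 0.00502) and 0.40 for +/–dox (adjusted p = 0.0007). Ventricular MBNL cohorts differed from +dox by 0.24 (MBNL1, adjusted p = 0.0626), 0.16 (MBNL2, adjusted p = 0.25) and 0.21 (MBNL1+MBNL2, adjusted p = 0.104). In the atria, where Gapdh was at 1751, 1872 and 1830 TPM in +dox and 1771, 1652 and 1902 TPM in –dox, the difference was -0.01 ± 0.08 (adjusted p = 0.951). The 2 chamber effects differed by 0.33 ± 0.12, which did not pass over all genes (adjusted p = 0.199).

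Eno1, the ubiquitous enolase that is replaced in adult muscle by Eno3 (chromosome 4, 150236721 to 150248879, plus strand), went one way in the ventricle and the other way in the atria. Ventricular levels were 25.9, 22.4 and 24.4 TPM in +dox, 29.9, 29.4 and 33.3 TPM in +/–dox, and 30.4, 26.3 and 32.5 TPM in –dox. Every library without the repeat RNA was above +dox, by 0.32 ± 0.10 for –dox (adjusted p = 0.0181) and 0.35 for +/–dox (adjusted p = 0.0094), the former failing in 4 of 7 fits without 1 library (+dox replicates 2 and 3, –dox replicates 1 and 3; adjusted p up to 0.0876). The first library set alone gave 0.27 (adjusted p = 0.199) and 0.31 (adjusted p = 0.132). Atrial levels were 51.0, 49.6 and 51.6 TPM in +dox, 33.7, 35.5 and 40.2 TPM in +/–dox, and 35.1, 34.5 and 38.8 TPM in –dox. There every library without the repeat RNA was below +dox, by -0.46 ± 0.10 for –dox (adjusted p = 0.00104) and -0.43 for +/–dox (adjusted p = 0.00319). The difference between the chambers' –dox effects was 0.78 ± 0.14 (adjusted p = 0.00209), the only member called for it, where 0.764% of all genes were called and 1.03% passed. With the chambers of 1 cohort and number taken as the same mouse, 5 members passed and 3 were called for this difference, Eno1 (0.78, adjusted p = 0.00106), Pfkfb1 and Pfkp (0.63, adjusted p = 0.0145), and Ldha (0.32, adjusted p = 0.0292) and Pfkl (0.44, adjusted p = 0.0273) passed below 1.5-fold. The shares of all genes above are those of the fit without this pairing, so the paired counts have no such share beside them. Within the first library set the Eno1 value was also 0.78, with an adjusted p of 0.0561.

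A near-identical copy, Eno1b, shares reads with Eno1 and moved with it, from 14.2, 13.1 and 12.1 TPM in +dox to 21.4, 18.03 and 22.3 TPM in –dox in the ventricle and from 27.1, 28.4 and 30.5 TPM to 22.8, 22.5 and 26.5 TPM in the atria. Summed over both, the levels were 40.1, 35.5 and 36.5 TPM in +dox and 51.8, 44.3 and 54.7 TPM in –dox in the ventricle, and 78.1, 78.0 and 82.1 TPM against 57.9, 57.0 and 65.3 TPM in the atria, so neither chamber overlapped on the sum. Eno1 in the MBNL1+MBNL2 atria, at 36.2, 41.6 and 37.2 TPM, was lower than +dox (-0.45 ± 0.10, adjusted p = 0.0174), a result lost without +dox replicate 1 or 2 or MBNL1+MBNL2 replicate 1 or 3 (adjusted p up to 0.143). In the ventricle, Eno1 was lower than in +/–dox under MBNL1 (-0.46, adjusted p = 0.00998; -0.29 without MBNL1 replicate 1, the library that stood apart, adjusted p = 0.0795), MBNL2 (-0.33, adjusted p = 0.0398, held in 1 of 7 fits without 1 library) and MBNL1+MBNL2 (-0.54, adjusted p = 0.00246).

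**Figure D4:**
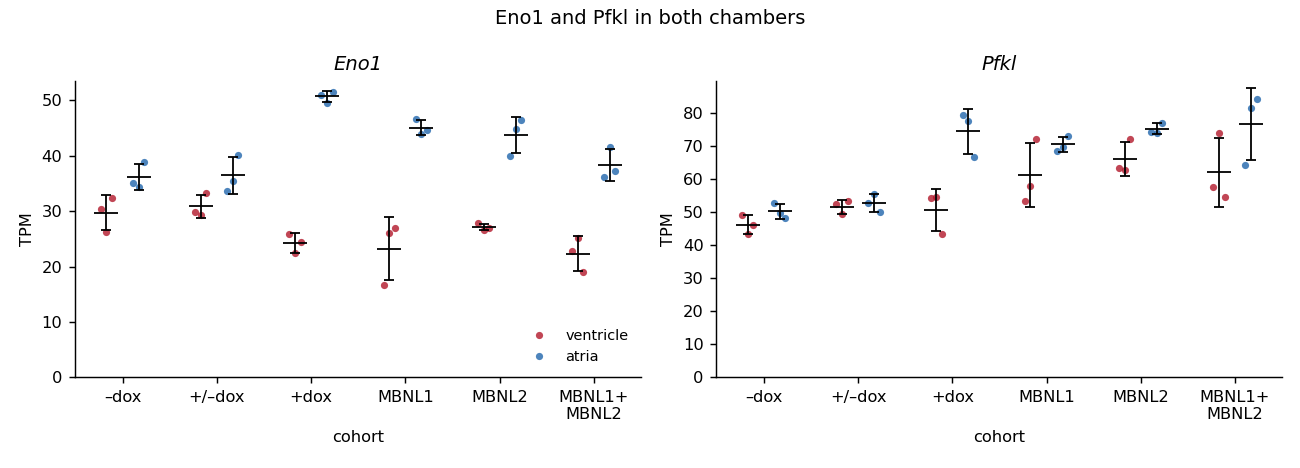
Levels of Eno1 and Pfkl in TPM in the 6 cohorts of ventricle (red) and atria (blue). Points are libraries, and the black dash and bars give the mean ± SD of 3. Atrial Eno1 falls from 49.6 to 51.6 TPM in +dox to 33.7 to 40.2 TPM in –dox and +/–dox while ventricular Eno1 is higher there, and atrial Pfkl is at 48.2 to 55.3 TPM in –dox and +/–dox against 66.6 to 79.3 TPM in +dox.

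The rest of lower glycolysis, Pgk1, Pgam1, Pgam2, Eno3 and Pkm, showed no difference from +dox that passed in either chamber. Eno3 was the most abundant of these in the ventricle, at 1108, 1126 and 1219 TPM in +dox and 1185, 1043 and 1217 TPM in –dox, with full overlap. Pkm, the pyruvate kinase of muscle, ranged from 599.6 to 810.2 TPM over the ventricular libraries. Pgam1 shares sequence with Pgam1-ps2, which held a mean of 4.10 TPM over the 36 libraries.

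Of the 4 lactate genes none passed between –dox and +dox, Ldha alone passed in the +/–dox ventricle, and Slc16a3 alone passed under MBNL1 and under MBNL2. Ldha, the muscle lactate dehydrogenase, was at 581, 538 and 496 TPM in the +dox, 618, 629 and 704 TPM in the +/–dox and 585, 589 and 564 TPM in the –dox ventricles. Its difference from +dox passed for +/–dox (0.28, adjusted p = 0.0268) and was lost without +dox replicate 3 or +/–dox replicate 2 or 3 (adjusted p up to 0.192). Ldhb was at 1166, 1225 and 1191 TPM in the +dox and 1004, 1000.3 and 1018 TPM in the –dox ventricles, without overlap on this scale but short of passing, and a copy, Ldhb-ps, held a mean of 189 TPM. Slc16a1, the lactate transporter MCT1, ranged from 56.2 to 72.9 TPM and did not pass.

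Slc16a3, the lactate exporter MCT4 (chromosome 11, 120948480 to 120960868, plus strand), passed against +dox with MBNL1 and with MBNL2 and did not pass in –dox or +/–dox. Ventricular levels were 0.93, 0.72 and 0.57 TPM in +dox, 1.82, 1.21 and 1.28 TPM under MBNL1, 1.60, 1.27 and 1.28 TPM under MBNL2, 1.08, 1.28 and 1.04 TPM under MBNL1+MBNL2, 0.85, 0.68 and 1.14 TPM in +/–dox, and 0.81, 0.67 and 0.67 TPM in –dox. All 9 libraries with MBNL were above +dox, while –dox and +/–dox overlapped with it. MBNL and the AAV9 vector cannot be told apart here. The differences from +dox were 0.57 for MBNL1 (adjusted p = 0.029) and 0.55 for MBNL2 (adjusted p = 0.0373). They passed in 3 of 6 and 2 of 7 fits without 1 library: the first failed without +dox replicate 2 or 3 or MBNL1 replicate 1, and the second without +dox replicate 2 or 3 or any 1 MBNL2 library (adjusted p up to 0.18 and 0.239).

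The glycogen synthesis genes were mixed. Gys1, glycogen synthase of muscle (chromosome 7, 45434844 to 45456619, plus strand), was at 37.8, 38.2 and 35.5 TPM in the +dox, 50.4, 50.4 and 51.8 TPM in the +/–dox and 50.8, 45.2 and 54.9 TPM in the –dox ventricles. No library without the repeat RNA overlapped with +dox, and the differences were 0.46 ± 0.10 (–dox, adjusted p = 0.00103) and 0.45 (+/–dox, adjusted p = 0.00132). Gyg, glycogenin, the protein primer on which a glycogen chain starts, went the other way, from 194, 174 and 209 TPM in +dox to 139, 149 and 164 TPM in +/–dox and 144, 168 and 162 TPM in –dox. It was lower than +dox by -0.24 ± 0.06 in –dox (adjusted p = 0.00735), a result that narrowly failed without –dox replicate 1 (adjusted p = 0.0609), and by -0.34 in +/–dox (adjusted p = 0.000333).

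Gyg was also lower than +dox in the ventricles of the MBNL2 cohort, at 170.3, 172 and 172 TPM (-0.30, adjusted p = 0.00507), and of the MBNL1+MBNL2 cohort (-0.24, adjusted p = 0.0189, lost without +dox replicate 1 or 3 or MBNL1+MBNL2 replicate 1 or 2, adjusted p up to 0.115). Atrial Gyg was lower in +/–dox (-0.23, adjusted p = 0.0173), in 3 of 7 fits without 1 library: it failed without +dox replicate 1 or 2 or +/–dox replicate 1 or 3 (adjusted p up to 0.112). Ugp2, which makes the UDP-glucose that glycogen synthase uses, was at 229, 201 and 299 TPM in the +dox ventricles and at 178, 174 and 177 TPM in +/–dox, which all lay below +dox (-0.48 ± 0.11, adjusted p = 0.00164). In –dox, Ugp2 was at 219, 242 and 191 TPM and overlapped with +dox. Under MBNL2, at 224, 191 and 184 TPM, it was lower than +dox by -0.44 (adjusted p = 0.0119), a result lost without +dox replicate 3, the highest library, or MBNL2 replicate 3 (adjusted p up to 0.107). The branching enzyme gene Gbe1 ranged from 33.5 to 42.9 TPM in the ventricle and did not pass.

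Among the glycogen breakdown genes, mRNA was higher without the repeat RNA in the ventricle for Pygb and Phkg1 in both comparisons and for Pygm in +/–dox. No member of this group passed as lower. Pygb, the brain-type glycogen phosphorylase (chromosome 2, 150786735 to 150831758, plus strand), was at 176, 163 and 159.8 TPM in +dox, 280.2, 291 and 264 TPM in +/–dox, and 249, 245 and 248 TPM in –dox. The lowest library without the repeat RNA was well above the highest +dox library. The difference was 0.60 ± 0.11 for –dox (adjusted p = 0.00012) and 0.75 for +/–dox (adjusted p = 8.14e-06). At 1.52-fold the –dox value sat on the fold threshold and dropped under it without +dox replicate 3, –dox replicate 1 or –dox replicate 2, with adjusted p at or below 0.00186 throughout and log2 values from 0.53 to 0.65. Pygm, the muscle phosphorylase and the most abundant of the 3, was at 485, 446 and 487 TPM in +dox, 553, 578 and 636 TPM in +/–dox and 525, 475 and 542 TPM in –dox, and passed in +/–dox (0.32, adjusted p = 0.00316). The liver type, Pygl, stayed at or below 9.38 TPM.

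Phkg1, the catalytic subunit of muscle phosphorylase kinase (chromosome 5, 129863421 to 129898549, minus strand), was at 9.74, 9.77 and 12.9 TPM in the +dox, 22.2, 18.4 and 16.8 TPM in the +/–dox and 20.7, 16.0 and 16.2 TPM in the –dox ventricles. The groups did not overlap, and the differences were 0.76 ± 0.17 for –dox (adjusted p = 0.00171) and 0.85 for +/–dox (adjusted p = 0.000598). Its gene model overlaps on the same strand with the more abundant Chchd2, which was at 374, 451 and 483 TPM in +dox and 453, 486 and 661 TPM in –dox ventricles. The other subunit genes, Phka1 and Phkb, did not pass in the ventricle.

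In the ventricles with MBNL, Pygb was at 235, 221 and 215 TPM under MBNL1, 196, 211 and 211 TPM under MBNL2, and 259, 221 and 177 TPM under MBNL1+MBNL2. All 9 libraries were above the +dox and below the +/–dox libraries. The difference from +dox passed for MBNL1 (0.39, adjusted p = 0.0202, lost without +dox replicate 3 or MBNL1 replicate 1, adjusted p up to 0.114), and that from +/–dox passed for MBNL2 (-0.59, adjusted p = 0.000899) and MBNL1+MBNL2 (-0.42, adjusted p = 0.0342; lost without MBNL1+MBNL2 replicate 2 or 3 or +/–dox replicate 1 or 2, adjusted p up to 0.26). Phkg1 was at 20.9, 14.6 and 22.4 TPM under MBNL1 (0.80, adjusted p = 0.00356), 12.97, 13.5 and 20.1 TPM under MBNL2, and 21.7, 17.8 and 13.3 TPM under MBNL1+MBNL2 (0.65, adjusted p = 0.0146), all above +dox. The last call was lost without +dox replicate 1 or 2 or MBNL1+MBNL2 replicate 1 (adjusted p up to 0.173).

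**Figure D5:**
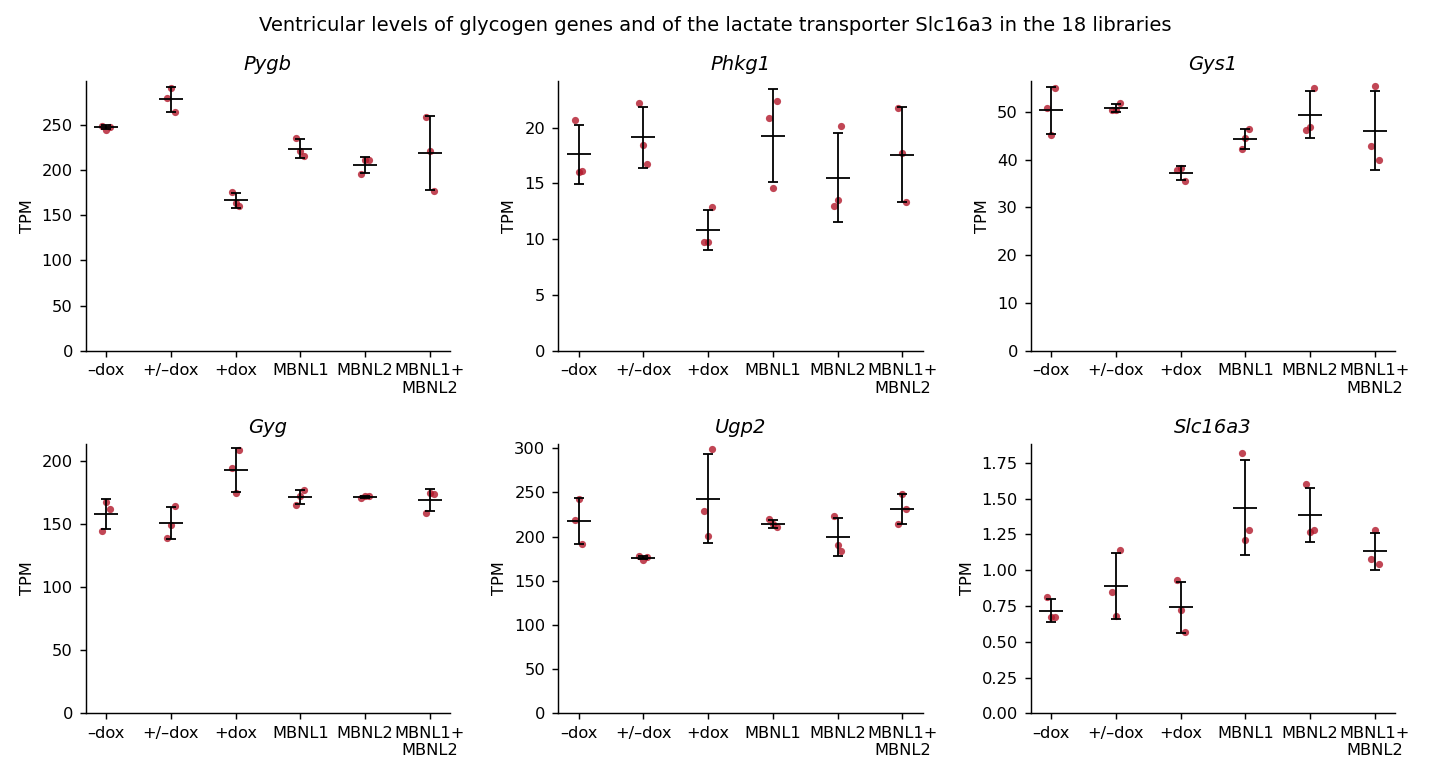
Ventricular levels in TPM of Pygb, Phkg1, Gys1, Gyg, Ugp2 and Slc16a3 in the 6 cohorts. Points are libraries, and the black dash and bars give the mean ± SD of 3. Pygb in the MBNL cohorts, at 177 to 259 TPM, lies between +dox (159.8 to 176 TPM) and +/–dox (264 to 291 TPM), and Slc16a3 is at 1.04 TPM or more in all 9 libraries with MBNL and at 0.93 TPM or less in +dox.

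In the atria, Phkb, the regulatory beta subunit of phosphorylase kinase, was at 18.5, 19.8 and 18.5 TPM in +dox, 23.9, 22.7 and 22.2 TPM in +/–dox, and 24.3, 23.3 and 22.7 TPM in –dox. It was higher without the repeat RNA by 0.34 ± 0.09 (–dox, adjusted p = 0.0115) and 0.33 (+/–dox, adjusted p = 0.0171), with no overlap. Pygb in the atria was at 252, 266 and 243 TPM in +dox, 314, 322 and 307 TPM in +/–dox, and 312, 283 and 311 TPM in –dox, and passed in +/–dox (0.37, adjusted p = 0.0208). Atrial Pygm was at 475, 522 and 468 TPM in +dox, 471, 483 and 475 TPM in +/–dox and 457, 457 and 462 TPM in –dox, and did not pass. The Phkb result in –dox was lost without +dox replicate 3 or –dox replicate 1 (adjusted p up to 0.0709). In +/–dox the results of Phkb and Pygb were both lost without +dox replicate 3 or +/–dox replicate 1 or 2, with adjusted p up to 0.114 and 0.156.

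The next question was how these genes differed from +dox in mice still on dox that were given MBNL vectors. Effects of the vector itself are part of these differences and were not tested. In the ventricle 6 of 38 members passed against +dox in the MBNL1 cohort, all higher (8.95% of all genes passed, 4.0% higher), with Pfkfb4 and Phkg1 called (2.66% of all genes called). The 6 were Slc2a4, Pfkfb4, Aldoa, Slc16a3, Pygb and Phkg1, of which Aldoa (0.26, adjusted p = 0.0472) failed whichever library was left out (adjusted p up to 0.155). DESeq2 gave 10 passing members, 9 higher and 1 lower, and library-size scaling 8, 7 higher and 1 lower. In the MBNL2 cohort 11 members had an unadjusted p below 0.05, with no share of all genes given. Of the 38 members, 3 passed, Slc16a3 higher and Gyg and Ugp2 lower (7.43% of all genes). None was called (1.52% of all genes), and none by DESeq2. The direction of these passing members moved with the scale, to 3 higher and 2 lower by library size and to 7 higher and none lower on log2(TPM + 1) with limma. In the MBNL1+MBNL2 cohort 4 passed, Slc2a4 and Phkg1 higher and Gyg and Hk2 lower (8.34% of all genes), and Phkg1 was called (2.65% of all genes). This count of 4 was 8 with DESeq2 (6 higher, 2 lower) and by library size (5 higher, 3 lower), 9 with the library set as a term (6 higher, 3 lower) and 5, all higher, on log2(TPM + 1) with limma. The library-set term also carries the sex of the mice in the other cohorts, whereas the MBNL1+MBNL2 mice were all male. Hk2 was at 76.0, 74.1 and 67.1 TPM under MBNL1+MBNL2 and at 76.4, 78.7 and 84.1 TPM in +dox (-0.21, adjusted p = 0.0341), a result lost without +dox replicate 2 or 3 or MBNL1+MBNL2 replicate 2 or 3 (adjusted p up to 0.142). When only the 18 ventricular libraries were fitted, Slc2a4 under MBNL1 and MBNL1+MBNL2 and Gyg under MBNL2 still passed, and the others had adjusted p from 0.0501 to 0.147.

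In the atria of the MBNL cohorts Eno1 was the only member to pass against +dox, in MBNL1+MBNL2, where 0.686% of all genes passed. None passed in the MBNL1 (0.348% of all genes) or MBNL2 cohort (0.0104% of all genes). None was called in any of the 3, where 0.13%, 0.0052% and 0.26% of all genes were called for MBNL1, MBNL2 and MBNL1+MBNL2, and DESeq2 called none. Unadjusted p-values below 0.05 were found for 2, 1 and 4 members, again with no share of all genes given.

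Set against +/–dox, 3 ventricular members passed in the MBNL1 cohort (Slc2a4, Pfkfb1 and Eno1; 2.67% of all genes, 1.3% lower), 6 in the MBNL2 cohort (those 3 with Gpi1, Pfkm and Pygb; 5.39% of all genes, 3.15% lower) and 4 in the MBNL1+MBNL2 cohort (the first 3 with Pygb; 1.77% of all genes, 1.18% lower), all lower than in +/–dox. Slc2a4, Pfkfb1, Eno1, Gpi1, Pfkm and Pygb are members that were higher in +/–dox than in +dox, and all comparisons with +/–dox share its libraries. Gpi1 (-0.26, adjusted p = 0.0173) and Pfkm (-0.31, adjusted p = 0.0163) under MBNL2 held in 3 and 4 of 7 fits without 1 library: both failed without MBNL2 replicate 1 or +/–dox replicate 1 or 2, and Gpi1 also failed without +/–dox replicate 3 (adjusted p up to 0.133 and 0.142). When only the 18 ventricular libraries were fitted, Slc2a4 and Pygb under MBNL2 still passed, and the other results had adjusted p from 0.051 to 0.239. In the atria 1 member passed under MBNL1 (Slc2a4; 4.6% of all genes), 2 under MBNL2 (Slc2a4 lower and Pfkl higher; 11% of all genes) and 5 under MBNL1+MBNL2 (Slc2a4, Hk2, Pfkfb2 and Pygb lower and Pfkl higher; 6.86% of all genes). Hk2 (-0.22, adjusted p = 0.031) and Pygb (-0.37, adjusted p = 0.0291) there each held in 2 of 7 fits without 1 library (adjusted p up to 0.154 and 0.19), and Slc2a4 under MBNL1 was lost without MBNL1 replicate 1 or 2 or +/–dox replicate 2 (adjusted p up to 0.129).

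Mice that never received dox and mice taken off it for 12 weeks were also compared. No member passed or was called in the ventricle, where 0.0572% of all genes passed and 0.0312% were called, or in the atria, where 0.0208% passed and 0.0104% were called. DESeq2 also called none. Unadjusted p-values below 0.05 were found for 4 ventricular members and 1 atrial member, again with no share of all genes given. The ventricular value farthest from 0 among these was that of Ugp2, 0.36 ± 0.11 (adjusted p = 0.322), and the atrial member was Slc16a1, at 55.8, 55.8 and 56.2 TPM in –dox against 47.3, 40.3 and 43.3 TPM in +/–dox (0.34 ± 0.09, adjusted p = 0.331).

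The chambers differed for most of these genes in –dox mice, and here the scaling of the libraries mattered. With TMM normalisation 32 of 38 members passed between ventricle and atria, 26 higher and 6 lower in the ventricle (42.6% of all genes), against 16 higher and 8 lower by library size and 7 higher and 15 lower on log2(TPM + 1) with limma. Of the 32, 17 were called, 14 higher and 3 lower in the ventricle (24.9% of all genes, 11.2% higher and 13.7% lower); by library size alone 5 were called higher and 5 lower, and on log2(TPM + 1) with limma 3 higher and 7 lower. TMM moved the median gene by 0.32 (log2) against library size. Relative to the median gene of each scale, the median of the 38 members was higher in the ventricle by 0.44 with TMM, 0.44 by library size and 0.20 on TPM. Called in the same direction on all 3 scales were Hk2, Pfkfb1 and Ugp2, higher in the ventricle, and Aldoc, Slc16a3 and Phkg1, higher in the atria.

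Hk2, the insulin-sensitive hexokinase of muscle, was at 75.9, 75.8 and 83.0 TPM in the –dox ventricles and 47.4, 51.3 and 55.8 TPM in the atria (TMM log2 difference 1.15 ± 0.06, adjusted p = 1.51e-15). Ugp2 was at 219, 242 and 191 TPM in the ventricles and 134, 125 and 119 TPM in the atria (1.38 ± 0.11, adjusted p = 5.2e-12), and Pfkfb1 differed by 2.09 ± 0.37 (adjusted p = 2.95e-05). None of these 3 overlapped between the chambers. Phkg1 was far higher in the atria, at 91.7, 87.2 and 100.3 TPM against 20.7, 16.0 and 16.2 TPM (-1.85 ± 0.17, adjusted p = 4.84e-10). Aldoc, at 1.37, 1.36 and 1.39 TPM in the atria and 0.10 TPM or less in the ventricle (-3.35 ± 0.33, adjusted p = 4.75e-10), and Slc16a3, at 2.10, 1.97 and 2.26 TPM against 0.81, 0.67 and 0.67 TPM (-0.83 ± 0.17, adjusted p = 0.000121), followed the same direction.

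Other members were called higher in the ventricle with TMM while the direction or the call depended on the scale. Pfkfb2 (1.07), Ldhb (1.06), Slc16a1 (0.89), Pfkp (0.84), Eno3 (0.82), Pygl (0.80), Pygm (0.70), Gyg (0.69), Tpi1 (0.62), Aldoa (0.61) and Pkm (0.61) made up the rest of the 14. Pfkfb2 was at 34.2, 37.96 and 44.5 TPM in the ventricles against 23.4, 30.0 and 29.5 TPM in the atria, and Ldhb at 1004, 1000.3 and 1018 TPM against 709.8, 693 and 708 TPM, without overlap on the TPM scale either. Slc16a1 (71.5, 72.1 and 69.5 TPM against 55.8, 55.8 and 56.2 TPM) and Eno3 (1185, 1043 and 1217 TPM against 1031, 943 and 859 TPM) did not overlap, whereas Pfkp (25.6, 30.0 and 38.5 TPM against 23.6, 22.6 and 30.0 TPM) and Pygl (5.42, 5.64 and 8.22 TPM against 4.40, 5.30 and 6.40 TPM) did. The sign of the difference was not the same with TMM and on TPM for 15 members. Gapdh, for example, was higher in the ventricle by 0.51 with TMM and overlapped on the TPM scale, at 1824, 1489.8 and 1888 TPM against 1771, 1652 and 1902 TPM.

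Isoform shares, the part of a family's summed TPM that 1 gene holds, do not depend on this scaling. Tests on 3 against 3 libraries by exact permutation (two-sided) cannot go below p = 0.1. Each share that follows reached this value, 0.156 after adjustment over 75 such tests, except where stated. Hk2 held 55.8% of the hexokinase TPM in the –dox ventricles and 34.6% in the atria. Ldha held 36.5% of lactate dehydrogenase in –dox against 31.1% in +dox in the ventricle, and 46.0% against 49.2% in the atria, opposite in sign and without overlap in either chamber. Pygb held 32.3% of phosphorylase in –dox against 25.8% in +dox in the ventricle and 39.4% against 34.0% in the atria. Pfkfb1 held 14.2% against 3.66% of the PFKFB sum in the ventricle, where the –dox libraries were at 24.4%, 10.2% and 7.87% with a mean of 9.04% without replicate 1, and 6.99% against 6.08% in the atria with overlap (exact permutation p = 0.5). Pfkl held 8.21% of phosphofructokinase in –dox against 11.3% in +dox in the atria.

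Around these members, 82 further genes of glucose handling were listed by function (other glycolytic and glycogen enzymes, insulin signalling, transcriptional regulators and side branches), and 76 could be tested. Between –dox and +dox 19 passed in the ventricle (8 higher, 11 lower) and 19 in the atria (7 higher, 12 lower), and 6 were called in each, set against the same shares of all genes as above. Among the ventricular calls, genes higher in –dox were Ppp1r3g, a glycogen-targeting phosphatase subunit (2.43, adjusted p = 0.0173), Mlxipl, the glucose-sensing transcription factor ChREBP (1.53, adjusted p = 2.76e-07), and Txnip, an inhibitor of glucose uptake (1.34, adjusted p = 0.0143). Ppp1r3g was near the floor of detection, at 0.04, 0.03 and 0.08 TPM in the +dox and 0.12, 0.22 and 0.43 TPM in the –dox ventricles. Lower in –dox were Slc16a7, the monocarboxylate transporter MCT2 (-1.45, adjusted p = 1.53e-05), and Prkag2, an AMPK subunit (-0.91, adjusted p = 6.43e-07). Atrial calls were higher for Txnip (1.12, adjusted p = 0.0475) and Gfpt1, the entry enzyme of hexosamine synthesis (0.85, adjusted p = 3.65e-08), and lower for Slc2a10, Tbc1d1, Akt1 and Gpd1 (-0.73, -0.69, -0.67 and -0.63).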

How the data were processed

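Poly(A)-selected, stranded libraries from 250 ng of total RNA were sequenced as paired reads of 150 bp. The authors used STAR 2.7.10b for alignment to the mm10 genome and RSEM 1.3.1 with GENCODE M25 for quantification, and deposited expected counts per gene symbol. The authors also deposited TPM values from the same run. Replicates were not pooled, and how RSEM treated strand is not given in the sources used here. Positions and gene models came from GENCODE M21 on GRCm38, which matched 96.4% of the symbols and all 38 members.

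Expected counts were rounded to whole numbers. Genes with low counts were removed by filterByExpr, and 12 group means were fitted over all 36 libraries with TMM factors in edgeR 4.0.16 (robust quasi-likelihood test, R 4.3.3), so all groups shared the estimate of the spread. Calls required a Benjamini-Hochberg adjusted p below 0.05 over all genes tested and a fold change of at least 1.5, and the adjusted p alone was read beside it. Alternatives were DESeq2 1.42.0, median-of-ratios and library-size scaling, no filter, each tissue alone, the library set or the replicate number as a term, limma 3.58.1 on log2(TPM + 1) and log2(TPM + 0.1), leaving out each library, and, chosen after seeing the data, the first library set alone. The study's sample list gives both chambers from the same mice, so the numbers were checked across chambers: same-numbered ventricles and atria of a cohort correlated in their deviations from the group means at 0.041 to 0.257, above 0.1 in 11 of 18 pairs, with a median of 0.132 against -0.08 for other pairs. Of the libraries, 17 of 18 ventricular and 16 of 18 atrial ones correlated best with their own number, and blocked values stand beside the chamber results they change. Shares were tested with exact permutation tests in scipy 1.17.1. The edgeR step was tested on simulated data with known fold changes. Figures were drawn with matplotlib 3.10.9.

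The members, the other pathway genes and the cell type markers were chosen with earlier results of these data known. Every member could be named. Values were given library by library, in the groups a result compares, for members called in a comparison with +dox, between the chambers or in their interaction, at most the 12 with the largest log2 fold change a comparison, and for the most abundant gene of each role group. Other members were given by ranges and counts where they did not pass. Gapdh was always named, and other pathway genes were named where called between –dox and +dox, or else chosen after their values were seen. An item among these other genes is not reported here. Depth was 55031987 to 97091184 expected counts a library. The edgeR p-values set a difference of group means against the spread between libraries of a group, estimated over all groups together. That spread includes the sex and library set of replicate 3, and the main fit treats the chambers of a mouse as separate. Low counts such as those of Aldoc carry the largest counting error.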

Additional observations from a re-analysis of the deposited data

Results flagged for a closer look

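Eno1 stood out because its response to the absence of the repeat RNA was opposite in the chambers and the difference itself was tested. The ventricular effect (0.32) minus the atrial effect (-0.46) was 0.78 ± 0.14 on the log2 scale (edgeR's quasi-likelihood test, adjusted p = 0.00209). Leaving out each library in turn gave 0.74 to 0.84 with adjusted p from 7.12e-05 to 0.00892. Within the first library set alone the difference did not pass. The ventricular –dox effect by itself did not pass in some of the fits without 1 library. As a share of the Eno1 and Eno3 sum, Eno1 was higher in –dox than +dox by 0.45 percentage points in the ventricle and lower by -1.15 in the atria, with no overlap in either chamber. This share uses the same Eno1 values and is no separate evidence. Its exact permutation p was 0.1 in each chamber, the lowest possible, as it was for the Ldha share that follows. The lactate dehydrogenase shares also went apart: the Ldha share differed between –dox and +dox by 5.46 percentage points in the ventricle and by -3.21 in the atria, without overlap, and the difference between the chambers was not tested for either share.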

How the results depend on the processing

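Counts of members called moved by over 1.5 times under these alternatives. On the adjusted p alone the counts against +dox were 15 (–dox), 17 (+/–dox), 6 (MBNL1), 3 (MBNL2) and 4 (MBNL1+MBNL2) in the ventricle, 5, 7 and 1 (–dox, +/–dox, MBNL1+MBNL2) in the atria, and 32 between chambers. With limma on log2(TPM + 1) there were 3 in the –dox ventricle, 1 in the MBNL1 ventricle and 10 between chambers, and with log2(TPM + 0.1) 1 in the MBNL2 ventricle and 11 between chambers. Library size alone gave 1 (MBNL2 ventricle) and 10 (chambers), and fitting the 18 libraries of a tissue gave 0 (MBNL1 ventricle), 0 (MBNL1+MBNL2 ventricle) and 1 (–dox atria, Pfkp). With the library set as a term there were 2 in the MBNL1+MBNL2 ventricle, and in the first library set alone 1 in the –dox and 1 in the +/–dox atria, 16 between chambers and 1 for the interaction, which was Pfkfb1. DESeq2 gave 3 for the interaction. Leaving out 1 library gave 4 to 6 (–dox), 5 to 6 (+/–dox), 2 to 3 (MBNL1), 0 to 1 (MBNL2) and 0 to 1 (MBNL1+MBNL2) in the ventricle, 0 to 3 (–dox) and 0 to 1 (+/–dox) in the atria, 14 to 18 between chambers and 1 to 2 for the interaction. Within a chamber the cohorts are different mice, and same-numbered libraries correlated at a median of only 0.024 (ventricle) and 0.057 (atria). The replicate block gave 3 called for the interaction, adding Pfkfb1 and Pfkp, and moved no other count of calls by over 1.5 times, with 6 and 6 in the –dox and +/–dox ventricle and 17 between chambers. Counts that passed moved with it from 4 to 8 in the MBNL1+MBNL2 ventricle, from 5 to 8 in the –dox atria and from 1 to 5 for the interaction. The shares of all genes under this block are not given here. The sign differed from TMM between chambers for 7 members by library size and 15 on TPM. Among members that passed with TMM, signs reversed by library size for Insr (-0.06), Pgk1 (-0.08), Eno1 (-0.06) and Gbe1 (-0.10), and on TPM with limma, at both pseudocounts, for Insr (-0.28, -0.29), Pfkm (-0.13), Pfkl (-0.12), Gapdh (-0.04), Pgk1 (-0.30), Eno1 (-0.28, -0.29), Ldha (-0.05), Gys1 (-0.11), Gbe1 (-0.32), Phka1 (-0.16, -0.17) and Phkb (-0.18, -0.19). Atrial Gapdh lay near 0 and changed sign without 1 library against +dox in –dox (-0.06 to 0.02) and under MBNL2 (-0.03 to 0.06, and -0.02 on TPM and -0.08 in the first library set), and against +/–dox under MBNL1 (-0.01 to 0.07), MBNL2 (-0.09 to 0.00, and 0.01 by library size) and MBNL1+MBNL2 (-0.03 to 0.05, and -0.02 with the library set as a term). The cause of these changes was not tested. Of the values for single members, 1997 stayed on their side of the threshold, 282 fell below it, 7 rose past it and 41 reversed. A further 4 results that were not log2 fold changes moved. Log2 fold changes entered this tally only for members in comparisons where they passed in the main fit, and for Gapdh. Members that did not pass were otherwise not followed, so few values could rise past the threshold. Depth limits the members of lowest level most, Aldoc, Slc2a3, Pfkfb1, Pfkfb4 and Slc16a3. In the +dox ventricles Pfkfb1 had a mean of 149 reads, against 188.7 for Pfkfb4 and 158.9 for Slc16a3.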

Other observations

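Of the 76 other genes of glucose handling tested, 17 passed between +/–dox and +dox in the ventricle (9 higher, 8 lower) and 15 in the atria (5 higher, 10 lower). Of all genes, 21.8% passed in the ventricle (10.6% higher, 11.1% lower) and 12.6% in the atria (5.4% higher, 7.21% lower). Mlxipl, the glucose-sensing transcription factor ChREBP, passed in all 5 ventricular comparisons with +dox, which share its libraries. The log2 differences were 1.53 in –dox (adjusted p = 2.76e-07), 1.26 in +/–dox (adjusted p = 6.43e-06), 1.02 under MBNL1 (adjusted p = 0.000527), 0.59 under MBNL2 (adjusted p = 0.0375) and 1.03 under MBNL1+MBNL2 (adjusted p = 0.000323) by edgeR. Slc16a7, the monocarboxylate transporter MCT2, was called lower than +dox in the ventricles of –dox (-1.45), +/–dox (-0.90), MBNL2 (-0.81) and MBNL1+MBNL2 (-1.07). Gfpt1, the entry enzyme of hexosamine synthesis, was called higher in the atria in –dox (0.85) and +/–dox (0.86), and Akt1, a kinase of insulin signalling, was called lower there (-0.67 and -0.78) and in the MBNL1+MBNL2 ventricles (-0.68). These genes were chosen after their values were seen.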
